A study of Homo sapiens with 6 samples.

Results

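Glycolytic enzymes and genes that cells switch on in hypoxia were compared between a pair of stably transfected ovarian carcinoma lines. The 37 genes were listed by name: 20 enzymes of glycolysis and its control, 15 other hypoxia-induced genes, HIF1A and EPAS1. The last 2 encode oxygen-regulated alpha subunits of the hypoxia-inducible factors (HIF). HIF3A, another alpha subunit gene, was read with the HIF machinery. Every probe set annotated to exactly 1 gene on that list was taken, which gave 87 tested probe sets and 3 GAPDH control probe sets that entered no test. CA9 had no probe set that the annotation used here names, so 36 of the 37 genes were measured, out of 19775 genes measured on the arrays.

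The arrays held RNA of SKOV3.ip1-S116D and SKOV3.ip1-S116A cells, 3 arrays of each. SKOV3.ip1 derives from SKOV3, an established human ovarian carcinoma line, and both derivatives carry a vector for a mutated PEA-15, a small protein that binds ERK and FADD according to its phosphorylation. The S116D line carries a phosphomimetic PEA-15, for which the labels name aspartic acid at Ser104 and Ser116 in one place and at Ser16 alone in the treatment text. The S116A line carries a nonphosphorylatable PEA-15 with alanine at Ser116. Both lines grew in the same DMEM/F12 medium with serum, and neither was said to be kept in low oxygen. The untransfected parent and an empty-vector line were not analysed here, and the labels say neither whether a line is 1 clone nor whether its 3 arrays came from separate cultures. The p-values therefore rest on differences among these arrays, and that spread may be technical.

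Array medians lay between 7.862 and 7.893 on the log2 scale, and arrays of one line correlated at r of 0.9951 or more. PEA15 itself did not pass the test, with log2 signals of 12.69, 12.48 and 12.47 in S116D and 12.70, 12.62 and 12.50 in S116A (limma adjusted p = 0.82). Of 9 markers of ovarian carcinoma epithelium, KRT8, KRT18, KRT19, EPCAM, PAX8 and ERBB2 averaged above 10 in both lines, while MUC16 and MSLN lay below the median signal of 7.888. Of these 9, 4 fell in S116D (KRT8, KRT18, KRT19 and EPCAM) and the summed log2 signal of all 9 was 96.98 to 99.48 in S116D arrays and 100.76 to 103.07 in S116A arrays. None of 5 leukocyte, 6 fibroblast or 2 red cell markers was called, and of 5 endothelial markers KDR was called lower (-0.43), at 5.73 in S116D and 6.15 in S116A, with a summed level of 39.00 to 39.56 in S116D and 39.54 to 39.97 in S116A. Of the leukocyte markers PTPRC averaged 7.05 in S116D and 6.94 in S116A, below the median signal, as did CD14 and LYZ. ITGAM lay close to that median, at 7.89 in S116D and 7.90 in S116A. CD3E lay above it, at 9.57 in S116D and 9.52 in S116A, so the list was not uniformly dim. The part of the epithelial markers in the results below was not tested. In bulk RNA, fewer cells of a type and less RNA per cell cannot be told apart.

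Glycolysis turns glucose into pyruvate in a chain of enzymes, most of which exist as several isoenzymes from separate genes, and its speed is set mainly at hexokinase, phosphofructokinase and pyruvate kinase. In low oxygen the HIF alpha subunits escape hydroxylation by the EGLN enzymes, pair with ARNT and bind a short DNA element near genes for glucose uptake, glycolysis, lactate production, mitophagy and acid handling. Ovarian and other carcinoma cells often run glycolysis fast in normal oxygen too, so these genes are measured at high levels in many cancer lines.

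Between these lines the genes did not move as a block. Single isoenzymes and regulators differed in both directions, and most of the shared chain of enzymes did not pass the test. Of the 20 glycolytic genes, each read on its brightest probe set, 3 rose in S116D (PFKM, PFKFB3 and ENO2) and 3 fell (HK2, PFKFB2 and PGAM1). Over all genes 6.13% were called higher and 4.82% lower, or 11.0% in either direction, by limma at an adjusted p under 0.05. Of the 14 measured other hypoxia-induced genes, NDRG1 alone was called, and it fell. EPAS1, which encodes HIF-2 alpha, rose, while HIF1A did not pass.

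**Figure D1:**
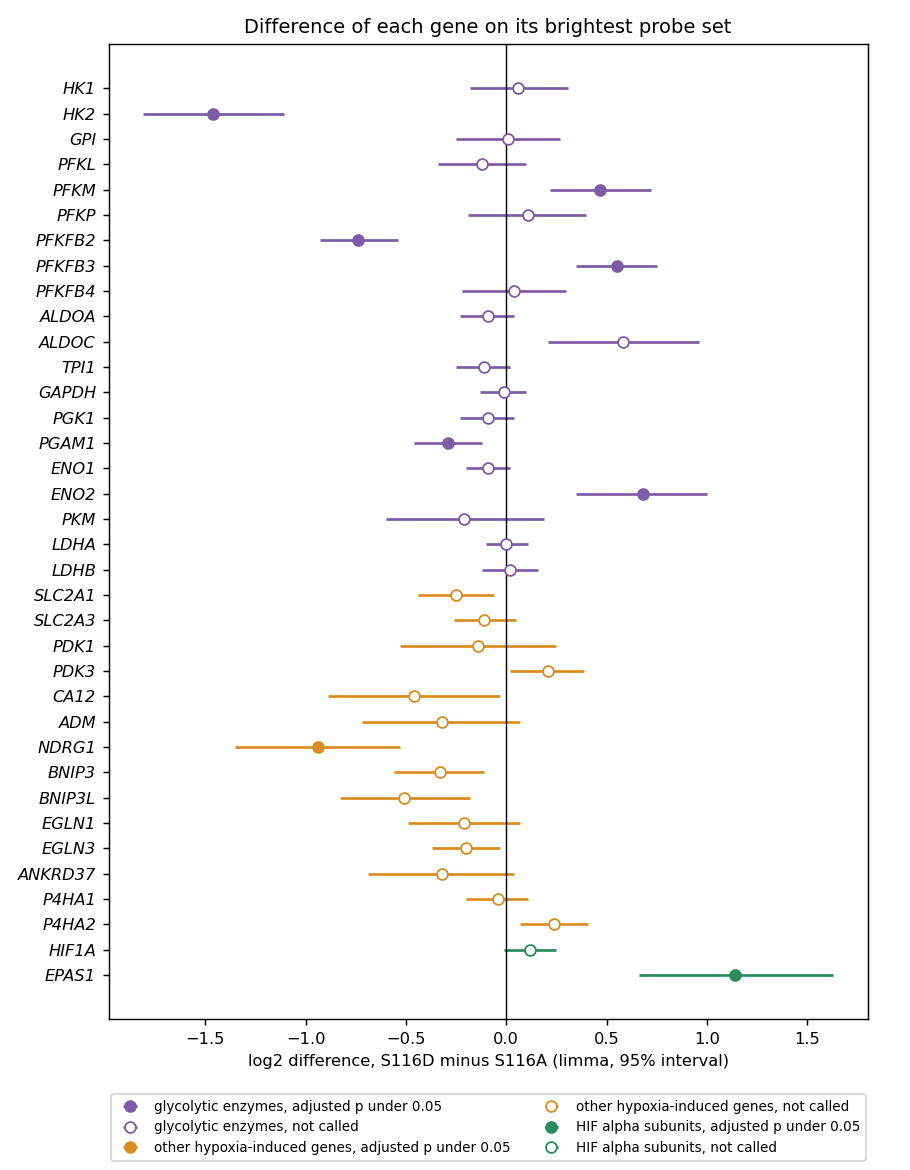
Log2 difference, S116D minus S116A, of each of the 36 measured genes on its brightest probe set, with limma's 95% interval, where filled points passed an adjusted p under 0.05. HK2 lies lowest at -1.46 and EPAS1 highest at 1.14, and most glycolytic enzymes lie close to 0.

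The median difference was -0.005 over the 20 glycolytic genes and -0.227 over the 14 other hypoxia-induced genes, beside 0.006 over all 19775 genes. Of the 20 glycolytic genes 10 had a difference below 0, and of the 14 hypoxia-induced genes 12 did, where 47.7% of all genes had one. These counts use brightest probe sets. Over all their probe sets, 31 of 44 glycolytic and 26 of 39 hypoxia-induced ones were below 0. Signal was not matched: 20 glycolytic and 13 hypoxia-induced genes lay above the median signal, as did 13419 of all 19775 genes. The arrays of the lines did not overlap for 10 glycolytic genes (4 higher, 6 lower) and for 7 hypoxia-induced genes (2 higher, 5 lower). Among all genes 15.3% were higher without overlap and 12.6% lower, 27.8% in all.

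Upstream sequence is shown for some of the genes, each with a match in the window shown, and not for every called gene. RefSeq promoter windows (GRCh38.p14) were found for 33 of the 37 genes, and the 250 bases before the annotated start were searched for the core of the hypoxia response element, ACGTG or GCGTG, on both strands. Of the 33 genes 27 (81.8%) held either motif in at least 1 window, against 47.4% of 27305 RefSeq genes. ACGTG was found for 57.6% of members and 21.7% of all genes, and GCGTG for 51.5% of members and 36.2% of all genes. Some genes have several starts, and over single windows the shares for either motif were 58.9% of 56 member windows and 43.2% of 35116 windows. By window ACGTG was in 39.3% of member windows and 18.5% of all, while GCGTG was in 32.1% of member windows and 32.2% of all. The members were listed as glycolytic and hypoxia-induced genes, so a higher share than over all genes says nothing about these lines. CA9, which was not measured, is counted among the 33. Base composition was not matched, and a match shows neither binding nor a cause. Capitals mark the matches, in either orientation, and CACGTG counts as a match on each strand.
HK2, chr2:74833877-74834126, plus strand: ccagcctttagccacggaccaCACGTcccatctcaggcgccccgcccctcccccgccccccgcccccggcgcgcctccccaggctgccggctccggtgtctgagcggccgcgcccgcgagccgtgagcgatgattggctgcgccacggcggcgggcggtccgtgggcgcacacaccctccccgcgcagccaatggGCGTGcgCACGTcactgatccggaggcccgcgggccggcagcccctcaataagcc
PFKFB3, chr10:6202682-6202931, plus strand: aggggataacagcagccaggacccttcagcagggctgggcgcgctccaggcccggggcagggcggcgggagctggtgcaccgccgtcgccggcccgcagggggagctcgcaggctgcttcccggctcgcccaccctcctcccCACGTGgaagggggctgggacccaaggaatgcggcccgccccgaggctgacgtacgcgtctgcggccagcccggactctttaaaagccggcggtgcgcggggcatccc
PGK1, chrX:78103998-78104247, plus strand: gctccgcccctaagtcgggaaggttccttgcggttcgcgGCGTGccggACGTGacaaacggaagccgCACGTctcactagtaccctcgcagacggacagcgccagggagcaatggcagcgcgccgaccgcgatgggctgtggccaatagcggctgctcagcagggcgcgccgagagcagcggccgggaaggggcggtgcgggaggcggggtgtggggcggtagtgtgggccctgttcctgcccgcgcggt
ENO2, chr12:6914330-6914579, plus strand: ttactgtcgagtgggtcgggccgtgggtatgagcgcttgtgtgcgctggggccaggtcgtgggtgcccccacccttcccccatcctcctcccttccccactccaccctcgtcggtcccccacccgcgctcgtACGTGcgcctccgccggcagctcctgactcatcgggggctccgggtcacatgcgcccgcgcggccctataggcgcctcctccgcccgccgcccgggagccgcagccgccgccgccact
PDK3, chrX:24465036-24465285, plus strand: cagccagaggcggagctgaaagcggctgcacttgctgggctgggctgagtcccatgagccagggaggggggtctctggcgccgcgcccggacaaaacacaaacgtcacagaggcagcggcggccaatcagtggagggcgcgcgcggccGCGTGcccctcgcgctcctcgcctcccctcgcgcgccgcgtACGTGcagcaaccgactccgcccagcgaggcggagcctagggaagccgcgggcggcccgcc
EPAS1, chr2:46297157-46297406, plus strand: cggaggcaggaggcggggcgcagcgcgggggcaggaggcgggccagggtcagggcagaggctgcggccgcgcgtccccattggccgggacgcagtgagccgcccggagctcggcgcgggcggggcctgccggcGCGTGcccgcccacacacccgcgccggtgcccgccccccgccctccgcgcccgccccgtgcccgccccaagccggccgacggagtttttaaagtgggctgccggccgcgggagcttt
The HK2 window shown is the first of 2 and held 3 matches, including a GCGTG and a CACGT separated by a pair of bases, and its second window held 6. The window of PFKFB3 is the second of 2 and held a CACGTG, while its first held 1 match. PGK1 held 3 matches, ENO2 1 and PDK3 2. EPAS1, a HIF subunit gene itself, held a single GCGTG. Of the genes shown HK2 fell in S116D, PFKFB3, ENO2 and EPAS1 rose, and PGK1 and PDK3 were not called on their brightest probe sets. Of the called genes not shown, PGAM1 held no match in its window and PFKM a single match over its 7 windows. NDRG1 and PFKFB2, both called, had no window, nor had BNIP3L and SLC2A3.

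**Figure D2:**
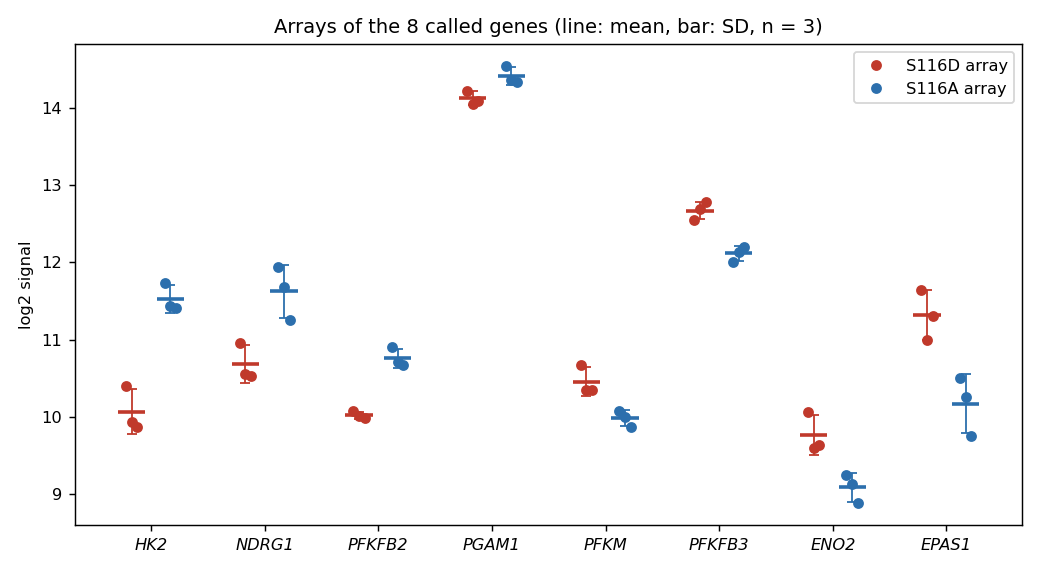
Log2 signal of each array for the 8 called genes, S116D left of S116A, with the mean and SD of 3 arrays. The lines do not overlap for any of the 8, with S116D lower for HK2, NDRG1, PFKFB2 and PGAM1 and higher for PFKM, PFKFB3, ENO2 and EPAS1.

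Hexokinase, which traps glucose in the cell as glucose 6-phosphate, showed the largest difference among the glycolytic genes. HK2, the inducible hexokinase that binds mitochondria and is a known HIF target, had log2 signals of 10.40, 9.93 and 9.87 in S116D and 11.73, 11.44 and 11.41 in S116A. Every S116D array lay more than 1 log2 unit below every S116A array. HK2 fell by 1.46 ± 0.15 (SE) on the log2 scale, 2.75-fold lower in S116D (limma adjusted p = 8.87e-04). Its 2 other probe sets, with dimmer signals, also fell, by 0.63 (limma adjusted p = 0.0167) and by 0.36 (limma adjusted p = 0.00663). HK1, the widely expressed hexokinase, had 12.99, 12.72 and 12.79 in S116D and 12.96, 12.75 and 12.61 in S116A, where the lines overlapped (difference 0.06, 95% interval -0.18 to 0.31). HK2 was called lower in S116D under all 16 alternative settings, with limma adjusted p up to 0.0124, and on the median of its probe sets it fell by 0.63.

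Glucose 6-phosphate isomerase, GPI, differed by 0.01 (95% interval -0.25 to 0.27). Of the 3 phosphofructokinase genes, which encode the muscle, liver and platelet forms of the committing enzyme, the muscle form PFKM alone was called. PFKM had 10.67, 10.35 and 10.34 in S116D and 10.08, 9.99 and 9.87 in S116A, a rise of 0.47 ± 0.11 (SE) or 1.38-fold (limma adjusted p = 0.034). The lines did not overlap, but the distance between the lowest S116D and the highest S116A array was smaller than the range of the S116D arrays. Omitting any single array of the 6 ended the PFKM call, with limma adjusted p of 0.0667, 0.103 and 0.0826 without S116A 1, 2 or 3 and of 0.052, 0.0719 and 0.0609 without S116D 1, 2 or 3. PFKL (-0.12, 95% interval -0.34 to 0.10) and PFKP (0.11, -0.19 to 0.40) overlapped between the lines.

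The PFKFB genes encode bifunctional enzymes that make and break fructose 2,6-bisphosphate, the strongest activator of phosphofructokinase, and a pair of them moved in opposite directions. PFKFB3, the form with high kinase activity, had 12.55, 12.69 and 12.78 in S116D and 12.01, 12.14 and 12.20 in S116A. All S116D arrays were above all S116A arrays, and the rise was 0.55 ± 0.09 (SE), 1.47-fold (limma adjusted p = 0.00586). PFKFB2, known as the heart form, had 10.07, 10.01 and 9.98 in S116D and 10.90, 10.71 and 10.67 in S116A. It fell by 0.74 ± 0.09 (SE), 1.66-fold lower in S116D (limma adjusted p = 0.00161) and the S116D arrays, which lay close together, were all below the S116A arrays. Of its 4 probe sets this was the only one called. The 3 others differed by -0.16, -0.06 and -0.18, and on the median of the 4 PFKFB2 fell by 0.11 and was not called (limma adjusted p = 0.449). PFKFB4 differed by 0.04 (95% interval -0.22 to 0.30).

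In the middle of the chain no gene was called. ALDOA, the main aldolase, differed by -0.09 (95% interval -0.23 to 0.04) and its 3 probe sets all lay between -0.17 and -0.08. ALDOC, the brain aldolase, had 10.14, 9.60 and 9.64 in S116D and 9.41, 9.25 and 8.98 in S116A. The lines did not overlap, yet the difference of 0.58 ± 0.16 (SE) did not pass (limma adjusted p = 0.0673) beside SDs of 0.30 in S116D and 0.22 in S116A. TPI1, triose phosphate isomerase, differed by -0.11 (95% interval -0.25 to 0.02). GAPDH, often used as a reference gene, had 14.67, 14.71 and 14.74 in S116D and 14.70, 14.71 and 14.75 in S116A. Its lines overlapped on all 3 tested probe sets (difference -0.01, 95% interval -0.13 to 0.10).

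In the lower part of the chain, PGK1, which yields the first ATP, had 14.35, 14.34 and 14.32 in S116D and 14.53, 14.39 and 14.37 in S116A (difference -0.09, limma adjusted p = 0.489). Of its 6 probe sets 1 was called lower, by 0.60 (limma adjusted p = 0.0375), at mean signals of 6.37 in S116D and 6.97 in S116A, below the median of all probe sets. PGAM1, the phosphoglycerate mutase, had 14.23, 14.06 and 14.09 in S116D and 14.55, 14.37 and 14.34 in S116A. Its lines did not overlap and it fell by 0.29 ± 0.08 (SE), 1.22-fold lower in S116D, at a limma adjusted p of 0.0497. This was just inside the threshold, and it was lost with median centring (0.0538), without the intensity trend (0.0635), and without S116A 1 (0.138), S116A 2 (0.099), S116D 2 (0.193) or S116D 3 (0.168).

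Of the enolases ENO2 was called and ENO1 was not, and the difference between their changes was not tested. ENO2, the neuronal enolase, had 10.06, 9.60 and 9.63 in S116D and 9.24, 9.13 and 8.88 in S116A. All S116D arrays were above all S116A arrays, and ENO2 rose by 0.68 ± 0.14 (SE), 1.60-fold (limma adjusted p = 0.0229). The call ended without S116A 2 (limma adjusted p = 0.0716) and without S116A 3 (0.0537). ENO1, the ubiquitous enolase, had 14.84, 14.80 and 14.77 in S116D and 14.93, 14.88 and 14.88 in S116A. These did not overlap either, but the difference of -0.09 ± 0.05 (SE) was small and not called (limma adjusted p = 0.367), and all 4 ENO1 probe sets had differences below 0, from -0.22 to -0.09.

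At the last steps the lines overlapped throughout. PKM, pyruvate kinase, spread widely, with 14.06, 13.50 and 13.52 in S116D and 14.12, 13.98 and 13.61 in S116A (difference -0.21, 95% interval -0.60 to 0.19). LDHA, the lactate dehydrogenase subunit that HIF induces, had 15.15, 15.09 and 15.10 in S116D and 15.15, 15.08 and 15.11 in S116A. The 95% interval of its difference ran from -0.10 to 0.11. LDHB differed by 0.02 (95% interval -0.12 to 0.16). The highest value on any array was 15.33, so LDHA was read near the top of the scale. ALDOA, GAPDH, PGK1, PGAM1, ENO1 and LDHB were also bright, with line means from 14.13 to 14.90. Whether differences were compressed there was not tested for any of them.

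Ratios of related genes within an array set aside the level of that array. The 14 pairs were chosen after the values were seen and are given without a test, with the mean of the S116A arrays set to 0. HK2 over HK1 was -1.34, -1.54 and -1.68 in S116D, while S116A arrays lay between -0.06 and 0.04. PFKFB3 over PFKFB2 was 1.11, 1.32 and 1.44 in S116D, with S116A arrays from -0.25 to 0.17. ENO2 over ENO1 was 1.03, 0.61 and 0.67 in S116D, and ALDOC over ALDOA 0.99, 0.57 and 0.47, both clear of S116A arrays, which reached 0.12 and 0.15. PFKM over PFKL changed by 0.59 and over PFKP by 0.36, again without overlap. The lactate dehydrogenase ratio, LDHA over LDHB, changed by -0.01 and overlapped. Since the pairs were picked by their values, and 27.8% of single genes did not overlap, nothing is read from how many pairs were clear of overlap. The 5 pairs that overlapped were LDHA over LDHB, SLC2A1 over SLC2A3, PDK3 over PDK1, BNIP3 over BNIP3L and EGLN3 over EGLN1.

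**Figure D3:**
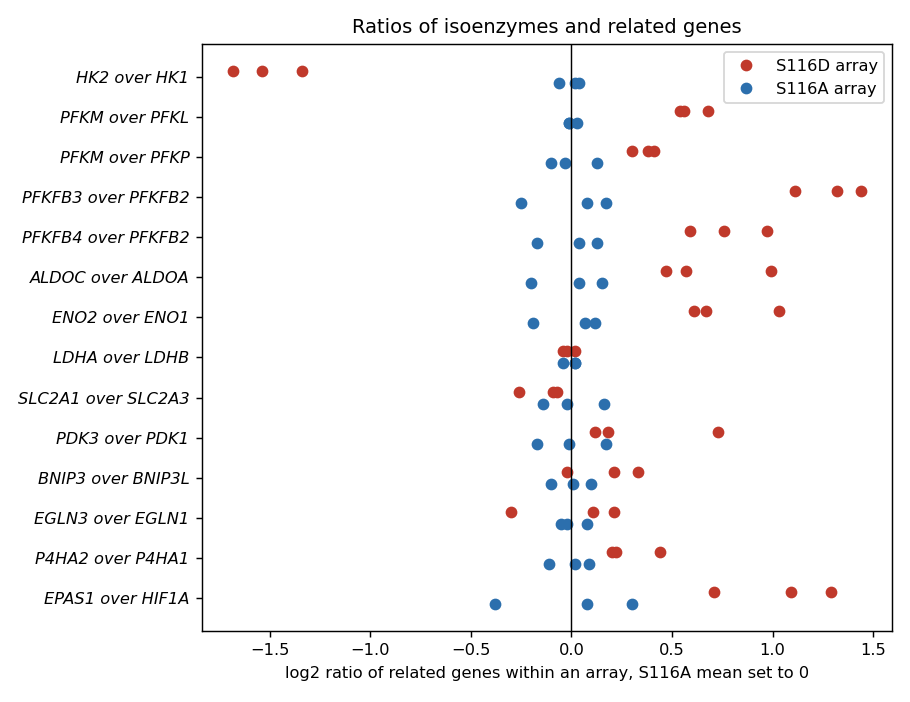
Log2 ratio of 14 pairs of related genes within each array, with the S116A mean of each pair set to 0 and S116D arrays drawn above S116A arrays. The S116D arrays lie at -1.68 to -1.34 for HK2 over HK1 and at 1.11 to 1.44 for PFKFB3 over PFKFB2, and overlap the S116A arrays for LDHA over LDHB.

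Of the other hypoxia-induced genes, NDRG1, a stress-responsive gene used as a marker of hypoxia, fell. It had 10.96, 10.56 and 10.53 in S116D and 11.94, 11.68 and 11.26 in S116A. The S116D arrays were all below the S116A arrays and NDRG1 fell by 0.94 ± 0.18 (SE), 1.92-fold lower in S116D (limma adjusted p = 0.0141). The call ended without S116A 2 (limma adjusted p = 0.0616), S116D 2 (0.0653) or S116D 3 (0.0604).

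The mitophagy receptors BNIP3 and BNIP3L did not pass, although neither overlapped between the lines. BNIP3 had 12.76, 12.55 and 12.76 in S116D and 13.20, 12.89 and 12.98 in S116A, a difference of -0.33 ± 0.10 (SE, limma adjusted p = 0.0835). BNIP3L had 12.19, 11.63 and 11.96 in S116D and 12.60, 12.40 and 12.30 in S116A, a difference of -0.51 ± 0.14 (SE, limma adjusted p = 0.0705), and it was called without S116D 1 (-0.64, limma adjusted p = 0.0216). In both genes S116D 2 was the lowest array.

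Glucose entry and acid handling gave differences below 0 that did not pass. SLC2A1, the glucose transporter GLUT1, had 11.10, 10.98 and 10.96 in S116D and 11.24, 11.37 and 11.18 in S116A, without overlap (difference -0.25, limma adjusted p = 0.125). SLC2A3, the neuronal transporter GLUT3, differed by -0.11 (limma adjusted p = 0.471) on its brightest probe set, below the median signal, and its 2 other probe sets differed by 0.06 and 0.05. Another 2 probe sets are shared with SLC2A14 and were not used. CA12, a membrane carbonic anhydrase, had 7 probe sets, none called, of which 5 differed by -0.73 to -0.34 and 2 by 0.10 and 0.03. On the brightest, CA12 had 9.13, 9.10 and 8.88 in S116D and 9.60, 9.85 and 9.03 in S116A, where S116A 3 stood near the S116D arrays. Without S116A 3 CA12 was called (-0.69, limma adjusted p = 0.0105).

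The pyruvate dehydrogenase kinases, which keep pyruvate out of the mitochondrial matrix pathway by phosphorylating pyruvate dehydrogenase, are given by isoform. PDK1, a classical HIF target, had 10.59, 10.00 and 10.44 in S116D and 10.75, 10.27 and 10.43 in S116A (difference -0.14, limma adjusted p = 0.782). PDK3 did not pass on its brightest probe set, with 11.05, 11.06 and 10.96 in S116D and 10.92, 10.78 and 10.75 in S116A (difference 0.21, limma adjusted p = 0.188). All 5 PDK3 probe sets were higher in S116D without overlap, and 3 of them were called. PDK3 rose on these by 0.49, 1.02 and 0.57 (limma adjusted p = 0.0109, 0.00186 and 0.00136), and on the median of its probe sets by 0.35 (0.0436). The largest of the 3 read 8.95, 8.59 and 8.62 in S116D and 7.85, 7.76 and 7.48 in S116A.

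**Figure D4:**
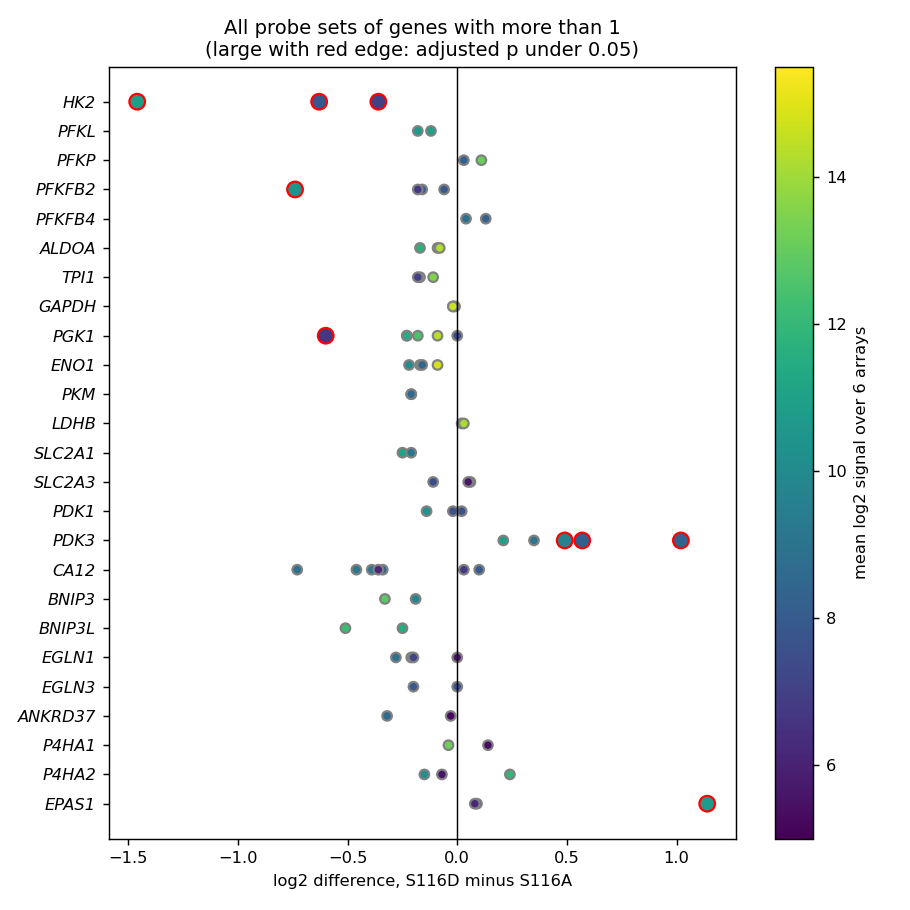
Log2 difference, S116D minus S116A, of every tested probe set of the genes with more than 1, coloured by mean log2 signal, with called probe sets large and edged in red. HK2 has 3 called of 3 and PDK3 3 of 5, whereas PFKFB2, PGK1 and EPAS1 have 1 called each.

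None of the oxygen sensors, collagen hydroxylases or remaining hypoxia-induced genes was called. EGLN1, the main HIF prolyl hydroxylase, differed by -0.21 (95% interval -0.49 to 0.07), and EGLN3, a strongly HIF-induced hydroxylase, by -0.20 (-0.37 to -0.03, limma adjusted p = 0.168). ADM, the vasodilator peptide adrenomedullin, had 11.63, 12.09 and 12.14 in S116D and 12.11, 12.13 and 12.61 in S116A, so that the lines overlapped (difference -0.32, limma adjusted p = 0.367). ANKRD37, an ankyrin-repeat gene induced by HIF, overlapped too (difference -0.32, limma adjusted p = 0.328). P4HA1, a subunit of collagen prolyl hydroxylase, differed by -0.04 (95% interval -0.20 to 0.11). Its relative P4HA2 was higher without overlap, at 12.02, 12.17 and 12.08 in S116D and 11.78, 11.87 and 11.89 in S116A, but did not pass (0.24, limma adjusted p = 0.091), and its 2 other probe sets differed by -0.15 and -0.07.

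Of the HIF alpha subunits EPAS1 was called and HIF1A was not, and the difference between their changes was not tested. EPAS1 had 11.64, 10.99 and 11.31 in S116D and 10.50, 10.25 and 9.75 in S116A. The lines did not overlap, and EPAS1 rose by 1.14 ± 0.21 (SE), 2.21-fold (limma adjusted p = 0.0122). It was called under all 6 omissions of an array, while its 2 other probe sets, with means of 6.14 to 6.55, differed by 0.09 and 0.08 and were not called, so the median of its probe sets was not called either (0.09, limma adjusted p = 0.503). HIF1A had 14.49, 14.42 and 14.36 in S116D and 14.34, 14.31 and 14.26 in S116A, without overlap. Its difference of 0.12 had a 95% interval from -0.01 to 0.25 (limma adjusted p = 0.313). HIF1A protein is controlled mainly by its stability, which the arrays do not read.

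Over all 87 tested probe sets of these genes, 7 were called higher and 7 lower in S116D, beside 4.36% higher and 4.19% lower of all 54613 probe sets, 8.55% in all. The lines did not overlap on 15 member probe sets higher and 27 lower, where 12.5% and 11.5% of all probe sets (24.0% in all) were such. No gene had probe sets called in both directions. PFKFB2, PGK1, PDK3 and EPAS1 had some but not all probe sets called, as had 18.2% of all genes with 2 or more. Of the 44 probe sets of glycolytic genes 3 were higher and 6 lower, of the 39 of other hypoxia-induced genes 3 were higher, all of PDK3, and 1 lower, and of the 4 of HIF subunits 1 was higher.

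Individual arrays carried a shared pattern across the glycolytic genes. S116D 1 was the highest array of its line for 17 of the 20 glycolytic genes, where it was for 41.1% of all genes, and S116A 3 was the lowest of its line for 14 of the 20, where it was for 33.8% of all genes. Among the 14 other hypoxia-induced genes these counts were 8 and 7. S116D 1 and S116A 3 also lay at the opposite ends of the second principal component (20.3% of the variance), which grouped S116D 1 with S116A 1 and S116A 2 and follows no label. These sets were drawn from the tested values themselves, so using them as a block lowers the spread by construction. With them as a block ALDOC (0.73, limma adjusted p = 2.08e-04), PFKP (0.21, 0.0488) and P4HA2 (0.22, 0.0377) were also called higher. ADM (-0.49, limma adjusted p = 2.78e-04) and BNIP3L (-0.41, 0.0219) were called lower. For that reason these calls are not independent support for a difference. The cause of the pattern was not tested.

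**Figure D5:**
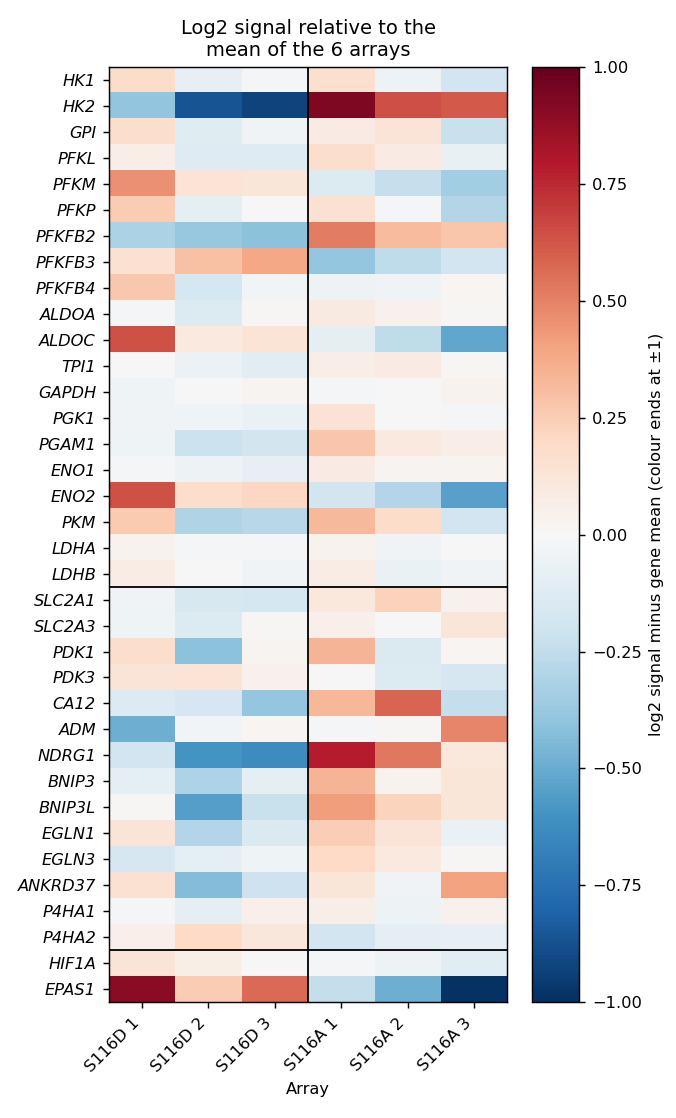
Log2 signal of the 36 genes on each array relative to the gene's mean over 6 arrays, with S116D arrays left of S116A arrays and lines between glycolytic enzymes, other hypoxia-induced genes and HIF subunits. HK2 and NDRG1 are lower in all 3 S116D arrays, and ALDOC, ENO2 and EPAS1 are highest in S116D 1 and lowest in S116A 3.

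Neighbouring pathways were read from lists of further genes. Of 28 measured further hypoxia-induced genes 6 fell and 2 rose in S116D on their brightest probe sets, where 4.82% of all genes fell and 6.13% rose. On a dimmer probe set AK4 and WSB1 each had 1 call higher, and ERO1A, JMJD6 and PLOD2 each had 1 call lower. Their median difference was -0.174, beside 0.006 over all genes. TMEM45A, a transmembrane gene of hypoxia signatures, had 9.67, 9.48 and 9.56 in S116D and 10.99, 10.72 and 10.84 in S116A, and fell 2.43-fold (limma adjusted p = 1.64e-04). ZNF395, a transcription factor, fell 2.29-fold on its brightest probe set (limma adjusted p = 0.00932) and was called on 2 of 3, but on the probe set preferred as unshared ZNF395 was at 0.05 (0.828). GBE1, the glycogen branching enzyme, fell by 0.56 and the secreted stanniocalcin STC2 by 0.51. INSIG2, a regulator of sterol synthesis, fell by 0.57, and its call ended without S116A 1 (limma adjusted p = 0.0614) or S116D 2 (0.0521). VLDLR, a lipoprotein receptor, rose 2.02-fold (limma adjusted p = 4.41e-04), with 10.68, 10.47 and 10.62 in S116D and 9.69, 9.49 and 9.56 in S116A.

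Of 13 measured genes of pyruvate entry and lactate transport 3 rose and none fell on their brightest probe sets (median difference 0.067). Of all genes 6.13% rose and 4.82% fell. PDHA1 and PDK4 each had 1 of 3 probe sets called lower, not the brightest. Of the 13 genes 3 had a difference below 0. Among them PDP1 (-0.69, limma adjusted p = 0.054) and PDHX (-0.28, 0.0516) lay just outside the threshold. MPC2, a subunit of the mitochondrial pyruvate carrier, had 12.10, 12.18 and 12.23 in S116D and 11.72, 11.70 and 11.82 in S116A, a rise of 0.42 (limma adjusted p = 0.00999) on 1 of 2 probe sets. PDHB, the beta subunit of the first pyruvate dehydrogenase enzyme, rose by 0.31 on its brightest probe set (limma adjusted p = 0.016) and was called on both. SLC16A4, of the monocarboxylate transporter family, rose by 0.40 at means of 5.62 in S116D and 5.22 in S116A. All 3 calls depended on single arrays. MPC2 was not called without S116D 2 (limma adjusted p = 0.0562) or S116D 3 (0.054), nor with unshared probe sets preferred (0.37, 0.0863). PDHB was not called without S116A 2 (0.0605), S116D 2 (0.088) or S116D 3 (0.0746). SLC16A4 was not called without S116A 1 (0.109), S116A 2 (0.108), S116D 1 (0.061) or S116D 3 (0.111).

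Of 12 other glucose transporter and glucose-sensing genes 3 rose and none fell (median difference 0.051), against the same 6.13% and 4.82% of all genes. ARRDC4, an arrestin-domain gene that glucose induces and that restrains glucose uptake, had 11.16, 10.22 and 10.16 in S116D and 9.36, 9.07 and 8.71 in S116A, and rose 2.76-fold (limma adjusted p = 0.0115). S116D 1 was the highest and S116A 3 the lowest array here too. SLC2A10 rose 1.97-fold and SLC2A6 1.39-fold, both members of the glucose transporter family, with limma adjusted p of 0.0187 and 0.0232. The SLC2A10 call ended without S116A 2 (0.0576) or S116D 3 (0.0573) and the SLC2A6 call without S116A 1 (0.0707), S116A 2 (0.0856) or S116A 3 (0.0514). Among 7 gluconeogenic genes G6PC3, a glucose 6-phosphatase, alone was called (0.37, limma adjusted p = 0.0277), with a list median of 0.007. The G6PC3 call ended without any single array of the 6 (limma adjusted p from 0.0564 to 0.0931).

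Other parts of the network held no call on a gene's brightest probe set at an adjusted p under 0.05 by limma. At an unadjusted p under 0.05 stood 4667 of all 19775 genes (23.6%), beside which the following counts are to be read. None of 16 measured other glycolytic isoenzymes was called (median difference -0.043), with 1 of 16 at an unadjusted p under 0.05. None of 7 pentose phosphate genes was called (median 0.041), with 3 of 7 at an unadjusted p under 0.05. On dimmer probe sets PGLS had 1 of 4 called higher and TKT 1 of 3 called lower. None of 13 genes of the HIF machinery, which includes ARNT, VHL and the elongin and cullin subunits that mark HIF for breakdown, was called (median 0.038), with 4 of 13 at an unadjusted p under 0.05.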

How the data were processed

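Gene expression was measured in 3 S116D and 3 S116A samples by Affymetrix HG-U133 Plus hybridisation, as the labels' protocols state. The authors deposited 1 log2 signal per probe set and array (54675 probe sets). The values were taken as log2 because all lay between 4.336 and 15.33 with nearly equal quartiles on each array. MAS5 and RMA are named in the submitters' processing notes, without a role. Their versions, and any background or filter step, are not stated in the labels. The table holds no detection calls, so no probe set was called absent. Pseudocounts had been listed as an alternative in case values were linear and were not run. Precision is limited by the number of arrays.

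The 62 control probe sets entered no test. GEO's platform annotation, with symbols updated through RefSeq gene identifiers, named 1 gene for 41091 of the remaining 54613 probe sets, several for 1801 and none for 11721. S116D was compared with S116A with limma 3.58.1 under R 4.3.3, using lmFit followed by eBayes with a trend on intensity, over all 54613 probe sets, with Benjamini-Hochberg adjustment over all of them and a threshold of 0.05. A gene was read on its brightest probe set by mean over the 6 arrays. Folds are back-transformed log2 differences, SEs and 95% intervals are limma's, and SDs are over 3 arrays. An exact permutation test of 3 against 3 cannot give a p below 0.1 and was not used.

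The members, lists and tests were chosen with earlier results of these data known. All measured members are named, and of the other lists the called genes, up to 6 a list with the smallest adjusted p. The fit was also run on simulated data with known changes. It recovered 46.3% of changes of 0.5 log2 units, 89.6% of 1 and 97% of 2, and 6.06% of its calls were false. Fewer probe sets were changed there than were called in these data, so recovery may differ here. Replicate numbers were not taken as pairs, because the labels state no pairing. Deviations of same-numbered arrays correlated at 0.45, -0.0401 and 0.442, which does not settle whether some arrays were paired. The alternatives tried were median centring, quantile normalization, a filter on dim probe sets, no intensity trend, replicate and component blocks, array weights, adjustment over genes, other probe set rules and leaving out each array.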

Additional observations from a re-analysis of the deposited data

How the results depend on the processing

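Under 16 alternatives, HK2 and PFKFB3 kept their calls in every one, and the 8 called members kept their direction. With the replicate number as a block, 7340 probe sets were called over the whole array. Other hypoxia-induced genes then numbered 1 higher and 4 lower, and member probe sets called lower numbered 14. By deviations, S116D 1 and S116D 3 correlated best with the S116A array of their own number, and S116D 2 with S116A 3. With the component sets as a block, 8099 probe sets were called, and 5 glycolytic genes and 11 member probe sets were higher. Other hypoxia-induced genes were 1 higher and 3 lower. The component sets came from these same values, so the larger counts are not independent support. Array weights gave 1 higher and 4 lower hypoxia-induced genes and 13 member probe sets lower. With each gene read as its probe sets' median, 1 hypoxia-induced gene (PDK3) was higher and 0 HIF subunits were called. Among probe sets above the median signal, 4 member probe sets were lower, since fewer were tested. The other causes were not tested. Of the members not called, 9 were called in at least 1 alternative: PFKP, ALDOC, SLC2A1, PDK3, CA12, ADM, BNIP3, BNIP3L and P4HA2. PFKP and ADM were called only with the component sets as a block.

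Leaving out single arrays gave 2608 to 4674 called probe sets, the lowest being 2608 (S116D 2 omitted), 2772 (S116D 3 omitted), 2775 (S116A 1 omitted) and 2986 (S116A 2 omitted). Glycolytic genes then numbered 1 to 2 higher and 2 to 3 lower, other hypoxia-induced genes 0 higher and 0 to 2 lower, HIF subunits 1 higher and 0 lower, and member probe sets 5 to 6 higher and 3 to 10 lower. Adjustment over genes, unshared probe sets and the median of probe sets give no count over probe sets.

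Differences of members that changed sign all belonged to genes that were not called, and of 15 called genes of the other lists ZNF395 changed sign (0.05, unshared probe sets preferred). Over the 6 omissions of an array, HK1 ranged from -0.02 to 0.15, GPI from -0.10 to 0.08, PFKP from -0.01 to 0.21, PFKFB4 from -0.08 to 0.14, GAPDH from -0.03 to 0.004, LDHA from -0.01 to 0.02, LDHB from -0.02 to 0.06 and PDK1 from -0.26 to 0.04. With array weights HK1, LDHA and LDHB were -0.01, GPI -0.07 and PFKFB4 -0.02, and with median centring GPI was -0.0021 and LDHA -0.01. On the median of probe sets SLC2A3 was 0.06, P4HA1 0.05 and P4HA2 -0.15, and with unshared probe sets preferred P4HA1 was 0.14. Signal over background could not be judged, which limits differences of dim probe sets.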

Other observations

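DDIT4, a hypoxia- and stress-induced inhibitor of mTOR on the list of further hypoxia-induced genes, was chosen after its values were seen for its spread within both lines. DDIT4 had log2 signals of 13.25, 11.28 and 11.90 in S116D and 12.94, 11.84 and 11.43 in S116A, so that arrays of one line differed by more than 1 log2 unit while the line means differed by 0.07 (95% interval -1.10 to 1.25). Another pair of genes of these lists, also chosen afterwards, did not pass, and several other genes of the lists lay closer to the threshold. GYS1, the muscle glycogen synthase, differed by -0.85 (limma adjusted p = 0.0722) and TXNIP, a glucose-induced arrestin related to ARRDC4, by 0.49 (limma adjusted p = 0.0886). The 3 GAPDH control probe sets lay between 13.76 and 14.61 on the 6 arrays.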
